A study of Mus musculus with 6 samples.

Results

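The genes described here are 10 transcription factor and immediate early genes: Fos, Fosb, Fosl1, Fosl2, Jun, Junb, Jund, Egr1, Atf3 and Ier3. They were chosen by name, and each of the 10 symbols matched 1 row of the deposited table of 45706 genes. RNA was sequenced from lung fibroblasts of wild-type mice, grown out of enzymatically digested lungs, in 3 control samples and in 3 samples given 30 ng/ml of recombinant mouse DKK1 over 24 hours. DKK1 (Dickkopf-1), a secreted Wnt inhibitor, acts by occupying the co-receptors LRP5 and LRP6, and the stated purpose was to find the genes that respond to it in these cells. The labels name no strain, age, sex, passage number or control vehicle, and do not say whether the samples of a group came from separate animals or cultures, so p-values measure only the spread between these samples.

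AP-1 is a dimer of 2 proteins that each carry a basic DNA-binding region and a leucine zipper. JUN proteins can pair with each other or with FOS proteins, whereas FOS proteins need a JUN partner to bind DNA. Fos, Junb, Egr1 and Ier3 are classical immediate early genes: serum, growth factors and inflammatory cytokines induce them within minutes, without new protein synthesis, through kinase cascades that reach the factors SRF, ELK1 and CREB, and their transcripts are short-lived. In fibroblasts AP-1 is known for its part in the expression of matrix metalloproteinases and cytokines.

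After 24 hours with DKK1, transcripts of Ier3 and Junb were higher, by 1.56-fold and 1.33-fold in mean CPM (a gene's counts scaled to a common library total). Fos stood 1.67-fold and Egr1 1.35-fold higher in mean level, neither was called by edgeR with the samples unpaired, and both were called when same-numbered samples were compared as pairs. This pairing was read from the same data and is not stated in the labels. Jun and Jund, partners of the FOS proteins, had mean levels within 3% of control (ratios of 0.975 and 0.977). A gene was called where the edgeR quasi-likelihood test gave a Benjamini-Hochberg adjusted p under 0.05 over 14635 tested genes. Of the 10 members 2 were called higher and 0 lower, against 0.895% of all tested genes called in either direction, 0.697% called higher and 0.198% called lower. With the replicate number as a block, 5 members were called, all higher, against 9.42% of all genes called in either direction, 4.96% called higher and 4.46% called lower. All 10 members passed the filter on low counts. Their median log2 fold change was 0.16, beside -0.00091 over all tested genes, and in 5 of them the DKK1 values lay wholly above the control values and in 0 wholly below, which held for 9.4% and 7.14% of all tested genes (16.5% in either direction). In 6 members the DKK1 sample was above the control of its number in all 3 pairs and in 0 below it in all 3, against 22.3% and 19.5% of all tested genes (41.8% in either direction).

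Upstream sequences are shown for Fos, which had the largest log2 fold change, and for the called members Ier3 and Junb, because the levels of these genes were higher together. Each is the 250 bases before the RefSeq start on assembly GRCm38.p6, 5′ to 3′ on the gene's own strand, in lower case, with capitals for matches to the kappa B site or to the letters TATAAA. The regions are chr12:85473640-85473889 (plus strand), chr17:35821463-35821712 (plus strand) and chr8:84978749-84978998 (minus strand).
Fos: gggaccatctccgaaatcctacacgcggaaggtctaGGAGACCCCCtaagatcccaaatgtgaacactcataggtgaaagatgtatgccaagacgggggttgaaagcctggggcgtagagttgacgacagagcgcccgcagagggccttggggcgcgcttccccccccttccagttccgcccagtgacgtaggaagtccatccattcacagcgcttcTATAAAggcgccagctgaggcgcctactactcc
Ier3: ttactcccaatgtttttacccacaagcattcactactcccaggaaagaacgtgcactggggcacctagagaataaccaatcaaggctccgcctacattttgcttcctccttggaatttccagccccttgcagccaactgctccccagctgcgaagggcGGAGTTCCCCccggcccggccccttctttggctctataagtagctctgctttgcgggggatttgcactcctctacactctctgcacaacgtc
Junb: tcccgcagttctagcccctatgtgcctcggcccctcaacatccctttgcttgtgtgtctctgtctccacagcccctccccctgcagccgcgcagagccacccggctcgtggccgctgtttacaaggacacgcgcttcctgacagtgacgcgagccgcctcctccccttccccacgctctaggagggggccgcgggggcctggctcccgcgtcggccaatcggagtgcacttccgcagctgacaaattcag

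The RefSeq promoter table held 8 of the 10 members, all but Fosl1 and Egr1. Both strands of the 8 windows were searched for 7 motifs. The CRE (TGACGTCA), the AP-1 site (TGANTCA) and the CArG box, which is the site of SRF, had 0 matches in the 8 windows. Among 32851 promoter windows of the same length, 1.55%, 6.75% and 1.47% had a match. Only matches to the full pattern of letters were counted, and bases outside the windows were not searched. Near matches to the CRE were left out, such as TGACATCA in the Jun window and TTACGTCA in the Atf3 window. The 0 matches therefore do not show that these genes lack such sites. The kappa B site, bound by NF-kB proteins, matched in 4 members (Fos, Fosb, Fosl2 and Ier3), against 7.25% of all windows. In Ier3 it lay 92 to 83 bases before the start and in Fos 214 to 205 bases before it. The EGR site (GCGNGGGCG) matched in Fosb and Fosl2 (4.7% of all windows), the TATA box (TATAAA) in Fos (12.4%), and the GC box (GGGCGG) in 6 members (32.7%); EGR sites and GC boxes can share bases. Junb and Jund had no match to any of the 7 motifs in these windows. RefSeq starts can differ from the GENCODE gene ends used for positions here: the Jund window ends at 70697738, upstream of the GENCODE start at 70698949 without reaching it, and the windows of Fosl2 and Atf3 lie inside the GENCODE genes. The Ier3 window ends at 35821712, past the GENCODE start at 35821684, so its last bases lie in the gene, as do those of the Fosb window. The Junb window stops short of its gene. Distances to the start given here are from the RefSeq start. A match describes letters only and shows no binding.

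Libraries held 22565917 to 34727102 counts, and the limit that a count of 0 allows (3 counts) came to 0.0864 to 0.133 CPM, for counting error only, since PCR copies are not independent molecules. Every member lay above this limit in every library. The fibroblast markers Col1a1, Col1a2, Col3a1, Pdgfra, Pdgfrb, Dcn, Lum and Thy1 summed to 10582 to 12086 CPM in control and 9960 to 11485 CPM in DKK1-treated libraries, lower with DKK1 in 3 of 3 numbered pairs. Most of that sum was Col1a1 and Col1a2, both called lower with the block (mean ratios 0.934 and 0.92, edgeR adjusted p = 0.00107 and 0.000123), as were Pdgfrb and Thy1. Dcn and Pdgfra were called higher with the block (mean ratios 1.52 and 1.21, adjusted p = 9.73e-06 and 9.74e-07), and none of the 8 was called unpaired. Of 8 leukocyte markers Cd3e was at 0, and Cd79a had 1 to 3 counts per library, not above the limit of 3 counts. The sum of the 8 was 395 to 795 CPM in control and 437 to 835 CPM in DKK1-treated libraries, higher with DKK1 in 3 of 3 numbered pairs. Most of this sum was Lyz2, at 340 to 722 CPM. Itgam, an integrin of myeloid cells, went from 14.9 ± 4.94 to 31.5 ± 10.2 CPM without overlap between the groups (ratios of 2.28, 1.98 and 2.10 in pairs 1 to 3; edgeR adjusted p = 0.136 unpaired and 7.23e-08 with the block). The macrophage gene Adgre1 was also called higher with the block (mean ratio 1.47, adjusted p = 0.00179) and Csf1r lower (mean ratio 0.828, adjusted p = 0.0364), and neither was called unpaired (0.665 and 0.756). Sums of 7 epithelial, 6 endothelial and 4 mesothelial markers, of which 0 were at 0 in all libraries, reached at most 63.0, 62.9 and 31.6 CPM. Replicate 3 stood apart in both groups: its leukocyte, epithelial, endothelial and mesothelial sums were the highest of each group. The part of these cells in the results below was not tested. In RNA from a whole culture, a change in the number of cells of a type and a change in RNA per cell cannot be told apart.

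**Figure D1:**
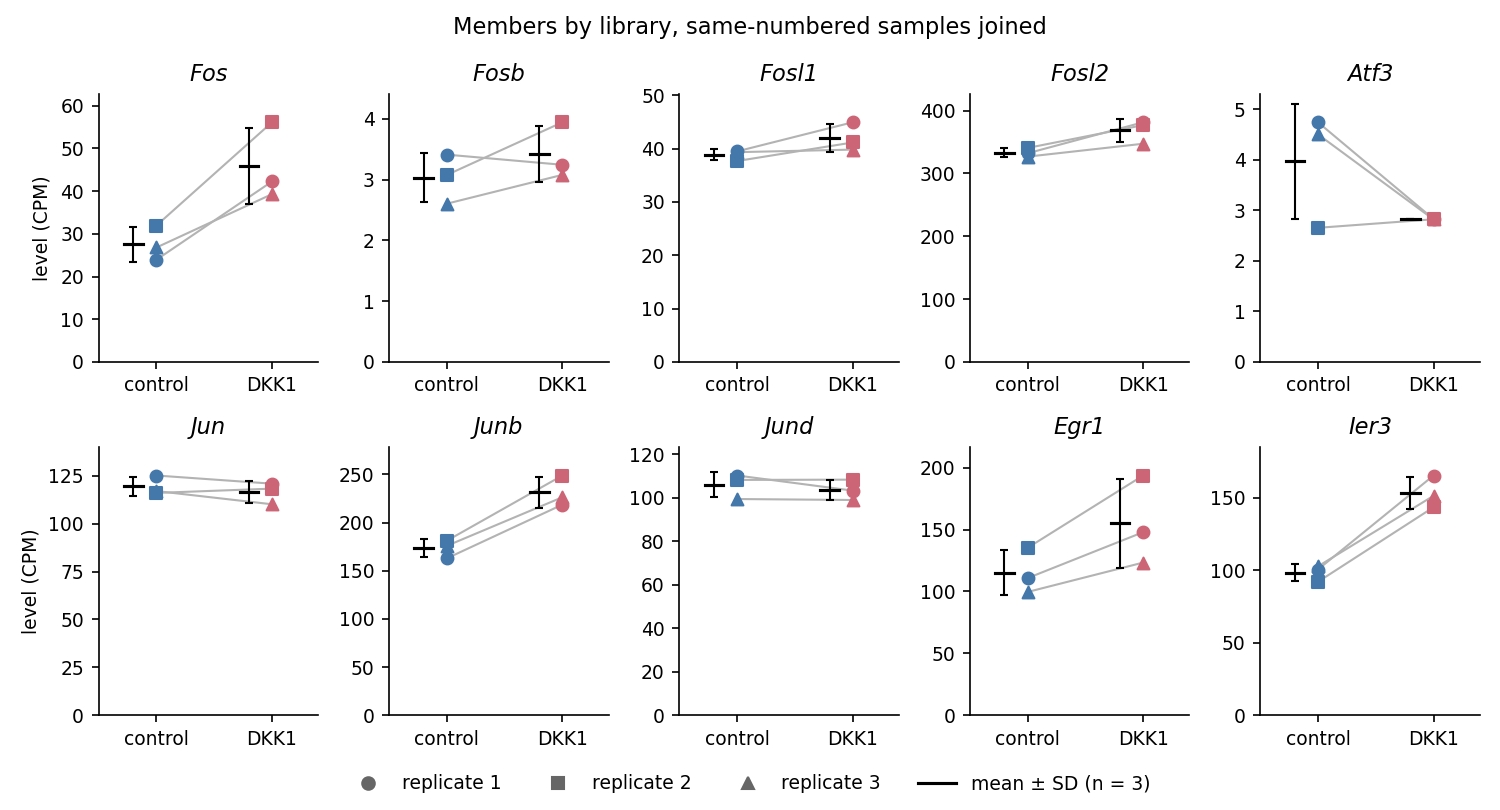
Level of each of the 10 genes in CPM (vertical axis, from 0) in the 3 control and 3 DKK1 libraries; marker shape gives the replicate number, grey lines join same-numbered samples, and black bars give the mean ± SD. The lines of Fos, Junb, Egr1 and Ier3 rise in all 3 pairs, whereas those of Jun and Jund stay nearly level.

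Of the FOS family, Fos (ENSMUSG00000021250, chromosome 12, 85473890 to 85477273, GENCODE M21 on GRCm38, 4 exons) encodes the founding member, c-FOS. It measured 23.9, 31.9 and 26.8 CPM in control replicates 1 to 3, and 42.3, 56.1 and 39.3 CPM in DKK1 replicates 1 to 3. Every DKK1 value lay above every control value, and replicate 2 was the highest of both groups. Group means were 27.6 ± 4.06 and 45.9 ± 8.99 CPM (SD over 3 samples). On the log2 scale the difference was 0.73 (SE 0.15, 95% interval 0.39 to 1.07), with an edgeR adjusted p of 0.0743 unpaired and 1.07e-06 with the replicate block. The ratio within pairs was 1.77, 1.76 and 1.47 for pairs 1, 2 and 3. The call without the block depended on the tool and filter: DESeq2 gave an adjusted p of 4.3e-05, and edgeR without the low-count filter 0.000636.

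Fosl2 (FRA-2, ENSMUSG00000029135, chromosome 5), a later and more stable FOS relative, was the most abundant FOS family transcript on the CPM scale. It stood at 332, 340 and 327 CPM in control and at 381, 377 and 347 CPM in DKK1 replicates 1 to 3. The groups did not overlap, but the gap was narrow, from 340 to 347 CPM. Its log2 fold change of 0.14 (SE 0.04, 95% interval 0.04 to 0.24) was not called unpaired (edgeR adjusted p = 0.27) and was called with the block (adjusted p = 0.00145), with a rise in each of the 3 pairs.

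Fosl1 (FRA-1, ENSMUSG00000024912, chromosome 19), whose gene is itself an AP-1 target, measured 39.5, 37.7 and 39.3 CPM in control and 44.9, 41.1 and 39.8 CPM with DKK1. The values did not overlap, with DKK1 replicate 3 only slightly above the highest control. Its log2 fold change was 0.11 (95% interval -0.02 to 0.23; edgeR adjusted p = 0.554, and 0.158 with the block). Its exons share 1163 bases with Ccdc85b on the opposite strand, which moved the other way, from 23.1 ± 0.913 to 19.8 ± 1.17 CPM (log2 fold change -0.23, edgeR adjusted p = 0.198, and 0.0215 with the block). The strandedness of the counting is not given in the sources used here, and the expected counts of both genes were whole numbers in all 6 libraries.

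Fosb (ENSMUSG00000003545, chromosome 7), which is best known for its stable short splice form in the brain, was the lowest of the 10 transcripts per length. It had 59 to 137 counts per library, which gave 3.41, 3.08 and 2.60 CPM in control and 3.24, 3.95 and 3.08 CPM with DKK1. The groups overlapped, and the log2 fold change of 0.18 had a 95% interval from -0.22 to 0.57 (edgeR adjusted p = 0.798, and 0.571 with the block). A rise or a fall within these bounds cannot be told apart from no change here.

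Of the JUN family, Junb (ENSMUSG00000052837, chromosome 8, 84974484 to 84978718, 1 exon) encodes a JUN protein with weaker activating capacity than c-JUN. It measured 163, 181 and 176 CPM in control and 219, 249 and 226 CPM in DKK1 replicates 1 to 3. The lowest treated library stood clearly above the highest control library, and replicate 2 was again the highest of each group. Mean Junb went from 173 ± 9.42 up to 231 ± 15.7 CPM (SD over 3 samples). On the log2 scale this rise was 0.41 (SE 0.06, 95% interval 0.28 to 0.55, edgeR adjusted p = 0.02). Leaving out control replicate 1, 2 or 3 or DKK1 replicate 1 or 2 moved the adjusted p just past the threshold, to 0.0864, 0.0566, 0.0519, 0.0502 and 0.0533, with log2 fold changes of 0.35 to 0.45 over all 6 such fits. Junb shares 173 exon bases with Prdx2 on the opposite strand, which measured 203 ± 0.965 CPM in control and 224 ± 8.71 CPM with DKK1 (edgeR adjusted p = 0.199, and 0.00478 with the block). The expected counts of Junb were whole numbers in all 6 libraries.

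Jun (c-JUN, ENSMUSG00000052684, chromosome 4, 1 exon), the JUN protein that gave the family its name, measured 125, 116 and 117 CPM in control and 121, 118 and 110 CPM with DKK1. The groups overlapped, though control replicate 1 lay above every DKK1 library and DKK1 replicate 3 below every control library. Its log2 fold change was -0.04, with a 95% interval from -0.15 to 0.07 (edgeR adjusted p = 0.852, and 0.505 with the block). Its exons share 232 bases with the antisense gene Junos (0.322 CPM in control and 0.275 CPM with DKK1), and 5 of 6 libraries gave Jun a fractional expected count.

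Jund (ENSMUSG00000071076, chromosome 8, 1 exon), the JUN gene known for steady expression in resting cells, measured 110, 108 and 99.5 CPM in control and 103, 108 and 99.0 CPM with DKK1. These groups overlapped too. The log2 fold change was -0.04, with a 95% interval from -0.16 to 0.09 (edgeR adjusted p = 0.88, and 0.536 with the block). All 6 libraries gave Jund a fractional expected count, and 877 exon bases are shared with the antisense gene Gm11175, so the level of Jund is uncertain. Gm11175 measured 12.1 ± 0.0915 CPM in control and 9.78 ± 1.27 CPM with DKK1 (log2 fold change -0.31, edgeR adjusted p = 0.3, and 0.0423 with the block).

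Ratios taken within a library do not depend on how libraries are scaled. Junb counts were 1.30, 1.56 and 1.50 per Jun count in control and 1.81, 2.10 and 2.05 in DKK1 replicates 1 to 3. Fos counts were 0.191, 0.275 and 0.229 per Jun count in control and 0.349, 0.474 and 0.357 with DKK1. Neither ratio overlapped between the groups. Each gave a p of 0.1 in an exact permutation test over samples (two-sided, n = 3 each; adjusted p = 0.1 over the 2 ratios). This is the smallest p that the permutation test can give for 3 unpaired samples against 3, so it cannot reach 0.05 and adds nothing to the lack of overlap.

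**Figure D2:**
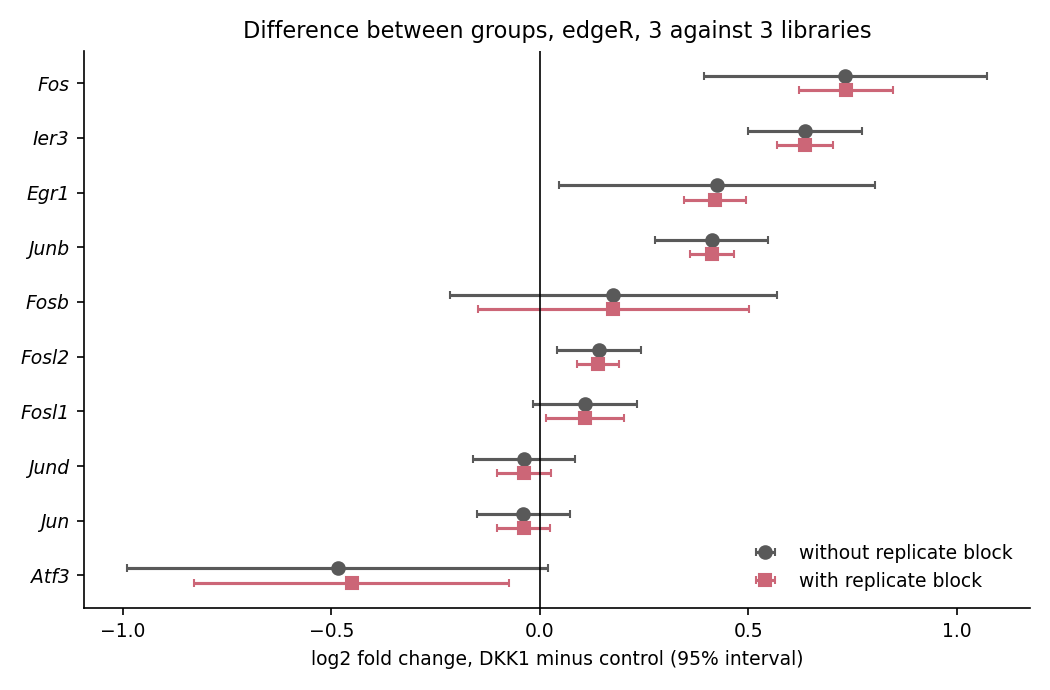
Log2 fold change of each gene (DKK1 minus control, horizontal axis) with its 95% interval, from edgeR without the replicate block (grey circles) and with it (red squares). Apart from Atf3 (-0.49 and -0.45) the estimates barely move with the block, while the intervals of Fos and Egr1 narrow, that of Egr1 from 0.05 to 0.80 down to 0.34 to 0.49.

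Ier3 (immediate early response 3, also IEX-1, ENSMUSG00000003541, chromosome 17, 35821684 to 35822923, 2 exons) encodes a small protein known in NF-kB signalling and cell survival, and is no transcription factor. It measured 100.4, 91.9 and 103 CPM in control and 165, 143 and 151 CPM in DKK1 replicates 1 to 3. The lowest treated library was far above the highest control. Mean Ier3 was 98.3 ± 5.63 CPM in control and 153 ± 11.1 CPM with DKK1 (SD over 3 samples). On the log2 scale the rise was 0.64 (SE 0.06, 95% interval 0.50 to 0.77, edgeR adjusted p = 0.00337). Ier3 remained called in each of the 6 fits that left out 1 sample (adjusted p from 0.00732 to 0.0218). No other gene with deposited counts overlaps it in GENCODE M21.

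Egr1 (ENSMUSG00000038418, chromosome 18) encodes a zinc finger factor that SRF and ELK1 control. It measured 111, 135 and 99.5 CPM in control and 148, 194 and 123 CPM with DKK1. The groups overlapped, because DKK1 replicate 3 lay below control replicate 2, yet each treated sample was above the control of its own number, by ratios of 1.34, 1.43 and 1.24. The log2 fold change of 0.42 had an SE of 0.17 unpaired (edgeR adjusted p = 0.392) and of 0.03 with the block (adjusted p = 3.86e-06).

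Atf3 (ENSMUSG00000026628, chromosome 1), a stress-induced bZIP factor and a target of the integrated stress response, was low, with 65 to 107 counts per library. It measured 4.74, 2.65 and 4.50 CPM in control and 2.83, 2.82 and 2.82 CPM with DKK1. Control replicate 2 lay below all treated libraries and the other two controls above them, so the groups overlapped. The log2 fold change of -0.49 had a 95% interval from -0.99 to 0.02 (edgeR adjusted p = 0.499, and 0.146 with the block).

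Replicate 3 differed from the others in size as well. In each of the 5 members called with the block, the ratio of DKK1 to control was smallest in pair 3; this held for 53.7% of the 726 genes called higher with the block and for 13 of 18 such genes among the other immediate early genes. With pair 3 left out, the block called the same number of members, 5, with log2 fold changes of 0.81 for Fos, 0.67 for Ier3, 0.47 for Egr1, 0.44 for Junb and 0.17 for Fosl2. With replicate 3 left out of both groups and no block, 1 member was called: Ier3 (log2 fold change 0.68, edgeR adjusted p = 0.0121), while Junb had a log2 fold change of 0.44 and an adjusted p of 0.0582. The part of the other cell types in this difference was not tested.

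Levels of different genes were compared per kilobase of their longest coding transcript. In control cells Junb led with 95.8 ± 5.21 CPM per kilobase (SD, n = 3), followed by Ier3 with 86.9 ± 4.98, Jund with 63.5 ± 3.45, Fosl2 with 50.9 ± 1.07, Jun with 37.5 ± 1.57, Egr1 with 25.7 ± 4.07, Fosl1 with 20.8 ± 0.538, Fos with 13.1 ± 1.93, Atf3 with 2.00 ± 0.576 and Fosb with 0.802 ± 0.107. Of the neighbours in this order, only Junb and Ier3 had overlapping values. With DKK1, Ier3 stood at 136 ± 9.79 and Junb at 128 ± 8.69 CPM per kilobase, again overlapping. Fos reached 21.8 ± 4.26, within the spread of Fosl1 at 22.5 ± 1.43, and Egr1 at 34.6 ± 7.96 overlapped Jun at 36.5 ± 1.76.

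**Figure D3:**
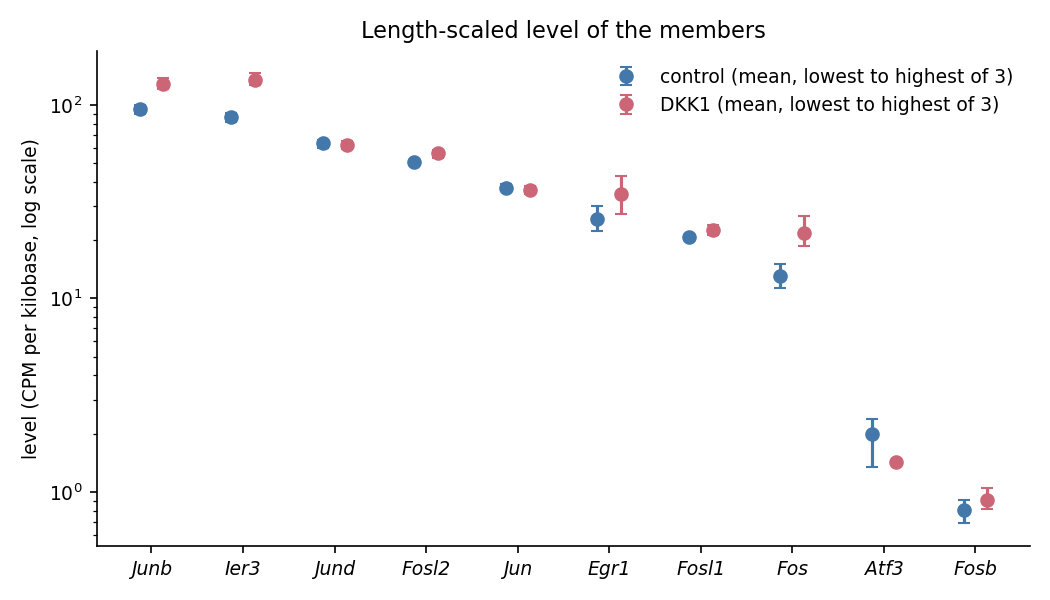
Mean level per kilobase (CPM per kilobase, logarithmic axis) of the 10 genes in control and DKK1-treated cells, ordered by the control level; bars run from the lowest to the highest of 3 libraries. With DKK1, Fos closes on its neighbour Fosl1 and Egr1 on its neighbour Jun, while Atf3 and Fosb lie far below the rest.

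The counts of each list below stand against 0.895% of all tested genes called unpaired and 9.42% called with the block (4.96% higher and 4.46% lower). Other immediate early genes were read from a list of 35, all tested. Of these 2 were called higher and 0 lower (edgeR, unpaired), and 18 higher and 3 lower with the block; their median log2 fold change was 0.15, 16 had treated values wholly above control, and 2 (Klf2 and Gadd45b) wholly below, against 9.4% and 7.14% of all tested genes. DESeq2 without the block called 9 of the 35 (289 of all genes), and edgeR without the low-count filter 11 (329 of all genes). With 1 pair left out under the block, edgeR called 14 to 22 of the 35 in either direction. The 2 genes called higher by edgeR unpaired were Nr4a2, an orphan nuclear receptor, and Sgk1, a serum- and glucocorticoid-regulated kinase. Nr4a2 rose from 32.9 ± 4.45 to 48.1 ± 0.942 CPM (SD, n = 3 each; log2 fold change 0.54, edgeR adjusted p = 0.0255). Sgk1 rose from 228 ± 12.2 to 287 ± 15.6 CPM (log2 fold change 0.33, adjusted p = 0.0278). Each lost the call in 4 of the 6 fits that left out 1 sample: Nr4a2 without control replicate 1 or 2 or DKK1 replicate 1 or 2 (adjusted p = 0.0642, 0.12, 0.129 and 0.103), and Sgk1 without control replicate 1 or 2 or DKK1 replicate 2 or 3 (adjusted p = 0.12, 0.12, 0.114 and 0.0655).

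**Figure D4:**
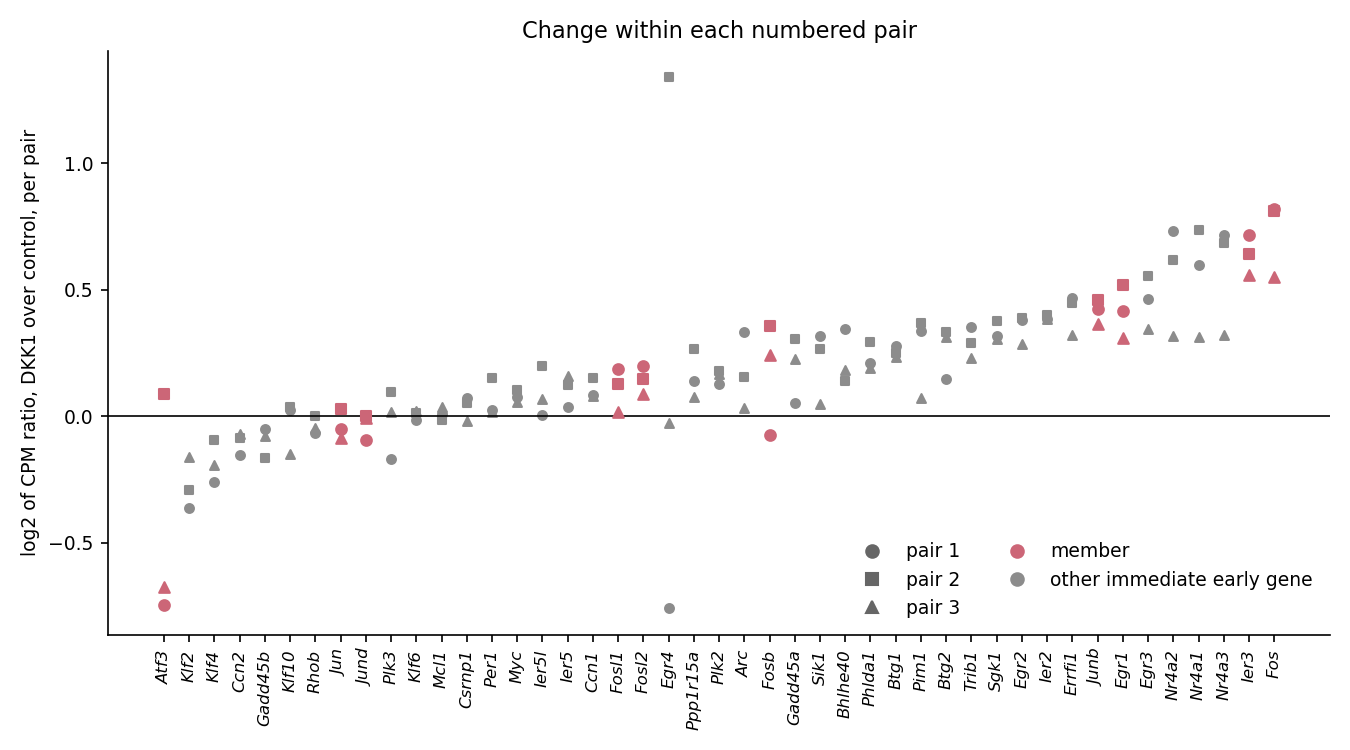
Log2 ratio of CPM, DKK1 over control, within each numbered pair for the 10 members (red) and 35 other immediate early genes (grey), ordered by the ratio of the group means. Fos and Ier3 lie at the upper end, with Nr4a1, Nr4a2 and Nr4a3 next to them, while Jun and Jund straddle 0.

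Of 24 other bZIP factors 22 were tested; 2 were called higher and 1 lower, and 2 higher and 5 lower with the block, against 0.895% and 9.42% of all genes (median log2 fold change -0.01). DESeq2 with the block called 2 higher and 1 lower, and edgeR with the block but without pair 2 called 2 higher and 2 lower. Crem, a cyclic AMP-responsive factor with an inducible repressor form, rose from 12.1 ± 0.0727 to 18.5 ± 1.50 CPM (log2 fold change 0.61, edgeR adjusted p = 0.0116). Nfe2l2 (NRF2, the regulator of antioxidant genes) rose from 134 ± 1.45 to 155 ± 4.17 CPM (log2 fold change 0.21, adjusted p = 0.043), and Atf5 fell from 219 ± 10.6 to 186 ± 3.46 CPM (log2 fold change -0.24, adjusted p = 0.0417). Crem lost the call without control replicate 1 or 2 or DKK1 replicate 1 or 2 (adjusted p = 0.0547, 0.0651, 0.0729 and 0.0588). Nfe2l2 lost it without any 1 sample other than DKK1 replicate 3 (adjusted p up to 0.174), and Atf5 without any 1 of the 6 samples (0.0519 to 0.179). Taking out trends on GC content and length without the block also lost both calls (log2 fold changes of 0.18 and -0.23, adjusted p = 0.145 and 0.0876), and doing so under the block kept both (adjusted p = 0.000316 and 9.72e-05).

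Of 27 genes for MAP kinases, their activators and the factors they reach, 0 were called by edgeR unpaired, where 2 had an unadjusted p under 0.05, DESeq2 called 1, and 2 higher and 1 lower were called with the block; these counts are near the shares over all genes, 0.895% unpaired and 9.42% with the block. Srf, the serum response factor, measured 175 ± 9.93 CPM in control and 174 ± 9.47 CPM with DKK1 (adjusted p = 0.976), and Elk1 measured 30.9 ± 0.464 and 31.0 ± 0.314 CPM (adjusted p = 0.997). Mrtfa, an SRF co-activator and the most abundant of this list in CPM, not scaled to length, had a log2 fold change of -0.07 (adjusted p = 0.758). Of 16 feedback genes, such as MAP kinase phosphatases and Sprouty genes, 1 was called, and 3 higher and 3 lower with the block. It was Spry2, an inhibitor of receptor tyrosine kinase signalling, which rose from 51.7 ± 2.08 to 71.9 ± 3.89 CPM (log2 fold change 0.47, edgeR adjusted p = 0.00696). Zfp36l2, an mRNA decay factor and the most abundant of the list in CPM, not scaled to length, had a log2 fold change of -0.08 (adjusted p = 0.672). Its call with the block (0.0278) was lost in DESeq2 with the block (0.31), with the GC and length trends taken out (0.0771) and without pair 2 or 3 (0.266 and 0.0951).

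Of 22 genes taken as AP-1 targets from textbook knowledge, all tested, 7 were called higher and 0 lower, and 15 higher and 1 lower with the block, with a median log2 fold change of 0.30. Several of these genes were known from earlier results of these data to rise, so the count is no independent evidence. The largest changes among those called were in the cytokines Il6 and Il11, the chemokine Ccl2 and the metalloproteinase Mmp3, with log2 fold changes of 1.37, 1.29, 1.27 and 1.18 (edgeR adjusted p = 0.00154, 0.00957, 0.0236 and 0.00742). Mmp3 measured 19.9, 17.1 and 15.3 CPM in control and 47.3, 37.2 and 34.3 CPM with DKK1. Il11 lost the call without control replicate 2 or DKK1 replicate 1 (adjusted p = 0.061 and 0.0502), Ccl2 without control replicate 2 or 3 (0.118 and 0.063) and Mmp3 without control replicate 2 (0.0538). Without control replicate 2, 1 gene of the list was called in all.

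Genes of 2 stress programmes that can move with immediate early genes were read as well. Of 11 heat shock genes 0 were called by edgeR unpaired, where 3 had an unadjusted p under 0.05, DESeq2 called 0, and 3 higher and 2 lower were called with the block; the most abundant, the chaperones Hspa8 and Hsp90aa1, had log2 fold changes of 0.02 and 0.08 (adjusted p = 0.882 and 0.379, and 0.531 and 0.0134 with the block). The call of Hsp90aa1 with the block was lost without pair 2 or 3 (0.118 and 0.0881) and with the GC and length trends taken out (0.239), and the list then held 2, 3 and 3 calls in all, as against 2 by DESeq2 with the block. Of 12 integrated stress response genes 1 was called higher and 1 lower, and 4 higher and 6 lower with the block (median log2 fold change -0.10). The lower calls with the block depended on tool and pair: DESeq2 with the block, and edgeR without pair 2, each called 3 higher and 1 lower. Over all genes 0.895% were called unpaired and 9.42% with the block. The cystine transporter gene Slc7a11 rose from 11.3 ± 1.91 to 22.1 ± 5.21 CPM (log2 fold change 0.96, edgeR adjusted p = 0.0492), and the gene called lower was Atf5, which the list shares with the bZIP factors. Slc7a11 lost the call with library totals (0.0517) and without control replicate 1 or 2 or DKK1 replicate 1 or 2 (0.191, 0.194, 0.134 and 0.0678).

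Ier3, the member with the smallest p, was compared with 13006 other genes over the 6 libraries. The 3 genes with the highest Pearson correlation of log2 CPM were Cp (the copper-binding ferroxidase ceruloplasmin), Pi15 (a peptidase inhibitor gene) and the long noncoding RNA gene Gm26809, with r of 0.998, 0.998 and 0.996. They share with Ier3 the difference between the groups: their log2 fold changes were 1.19, 0.55 and 1.04 (edgeR adjusted p = 0.00555, 0.00693 and 0.0022). Cp measured 16.5 ± 1.86 CPM in control and 37.7 ± 6.17 CPM with DKK1 (SD, n = 3 each). With so few libraries such values describe a likeness only.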

How the data were processed

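The authors deposited 1 table of expected counts per gene; the submitters' processing notes name STAR, RSEM and edgeR 4.2.1 and the builds GRCm38 and mm10, with no role or order. The annotation release and strandedness are not given in the sources used here. From 9.62% to 10.6% of a library's values were not whole. Columns were matched by each sample's description. Symbols were found for 98.8% of 45706 identifiers; GENCODE M21 (GRCm38) holds 98.7% of the transcript identifiers and gave positions and lengths. 

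Counts were rounded, filtered with filterByExpr (minimum count 10, leaving 14635 genes), scaled with TMM factors and passed to edgeR 4.0.16 under R 4.3.3 (glmQLFit and glmQLFTest, two-sided, group as the only term, Benjamini-Hochberg adjustment, called under 0.05). SE was taken as |log2 fold change| over the root of F. CPM uses the whole library total. The fit was checked on simulated data. No 2 libraries of a group matched within sampling noise (chi-square per degree of freedom 5.19 to 8.14).

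The replicate numbers in the titles were taken as pairs, since samples of the same number deviated together across genes from the mean of their group (r = 0.23 to 0.41 in the 3 pairs). Between control and DKK1 samples of different numbers r was -0.28 to 0.075. What a number marks is not stated, and the pairing was read from the same data that the block then tests. Fits with the number as a block stand beside the unpaired ones. Alternatives were DESeq2 size factors, library totals, no low-count filter, DESeq2 1.42.0 without and with the block, a fit with trends on GC content and length removed, without and with the block, and leaving out each sample; those chosen after seeing the data were leaving out each pair under the block and leaving out replicate 3 of both groups. Named genes were all 10 members, Srf, Elk1, up to 4 called genes of each other list by size of change (where fewer than 2 were called, the most abundant), and the 3 genes most like the member with the smallest p at a mean of at least 1 CPM; Cd3e, marker genes, Ccdc85b, Prdx2, Junos and Gm11175 are named for the check they serve, 1 gene that the rule names is not reported here, and Nr4a1, Nr4a3, Klf2 and Gadd45b were named after their values were seen. Members and lists were chosen with earlier results of these data known.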

Additional observations from a re-analysis of the deposited data

How the results depend on the processing

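Directions of the 16 named genes called without the block were the same in all 18 alternatives. Over all genes 131 were called; 329 were called without a low-count filter, 289 by DESeq2, 558 by DESeq2 with the block, 1379 with the replicate block, and 1275 when the GC and length trend was removed under the block. For members the count of 2 became 5 in each of the 3 fits with the block (edgeR, DESeq2, and edgeR with the trend removed), and for the other lists together 14 became 64, 41 and 59, with 30 without a filter and 25 by DESeq2. With 1 sample left out, 36 to 139 genes, 1 to 2 members and 2 to 16 list genes were called; with 1 pair left out under the block, 1312, 612 and 1059 genes, 5 members in every fit and 61, 42 and 57 list genes (pairs 1, 2 and 3). Without both replicate 3 samples, 149 genes and 1 member were called. Signs changed only in genes near 0 that were not called. Srf went from -0.01 to 0.00119 with the trend removed and to 0.00205 when the block was added; Elk1 from 0.00075 to -0.00079 with DESeq2 size factors, -0.00049 by DESeq2 and -0.00079 by DESeq2 with the block; and Hspa8 from 0.02 to -0.00129 and -0.00114 with the trend removed, without and with the block. With 1 sample left out, log2 fold changes ran from -0.0689 to 0.00026 for Jun, -0.0556 to 0.0201 for Srf and -0.00888 to 0.00714 for Elk1. With 1 pair left out under the block, Srf reached 0.0164 and Elk1 -0.00581 and -0.00397. Elk1 was at 0.0132 without both replicate 3 samples. The cause was not tested. Fosb and Atf3 had the fewest counts of the members, at most 137 in a library.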
